A study of Mus musculus with 10 samples.

Results

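The marker genes of liver sinusoidal endothelial cells, taken from a list of 10 genes, were followed through the livers of 10 mice aged 2 months. They are Stab1, Stab2, Fcgr2b, Lyve1, Clec4g, Kdr, Nrp1, Pecam1, Dnase1l3 and Oit3, and all 10 were found among the 19271 genes of the deposited table after its transcripts had been added up for each gene. The mice carry different forms of Htra2, which encodes HtrA2/Omi, a serine protease of mitochondria, and S400D replaces a serine of the protein by aspartate. There were 4 groups of the C57BL6/N strain: 1 female of genotype S400D/S400D, 3 S400D/S400D males (homozygous), 3 S400D/WT males (heterozygous) and 3 WT/WT males (wild type). The labels give the mutation for the whole animal, with no driver or cell type, and the RNA came from whole liver tissue, so hepatocytes and all other liver cells contributed to each library.

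Sinusoidal endothelial cells line the narrow blood channels of the liver. They have open pores and no continuous basement membrane, and they are known as the main scavengers of the liver, taking up hyaluronan, modified proteins and small immune complexes from blood through receptors such as the stabilins and Fc gamma receptors. Their upkeep depends on VEGF, which hepatocytes make and which the cells read through the receptor of Kdr and the coreceptor of Nrp1. When they lose this specialised state they are said to capillarise, and the genes of scavenging are then lost while genes of continuous capillaries appear.

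Each library held 16240441 to 17264289 expected counts, the estimated numbers of reads. Htra2 was read in every liver, at 12.3 to 17.3 CPM (counts divided by the TMM-adjusted size of each library), and the Y-linked gene Ddx3y, at 46.6 to 52.9 CPM in the 9 males and 0.0567 CPM in the female, fitted the sex labels. S400D changes the protein, so the Htra2 level does not check the genotype labels. The livers of S400D/WT male 1, WT/WT male 2 and WT/WT male 3 stood apart from the other 7 in the macrophage markers described further on. No label gives a litter, a batch or a time of collection, and the origin of the replicates is not given either, so a p-value here weighs a difference only against the spread among these libraries, which may be technical in part. In a bulk liver library, fewer cells of a type and less RNA per cell cannot be told apart.

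All 10 markers were read in all 10 livers, which is what the label of the list asks for. Counts for a marker in a liver ran from 42 reads (Lyve1 in WT/WT male 2, exact Poisson 95% interval 30.3 to 56.8, counting error only) to 1951 reads (Nrp1 in S400D/WT male 3, 1865.4 to 2039.5). The general endothelial cadherin gene Cdh5 was read in all livers too, at 7.20 to 24.6 CPM. Lymphatic endothelium also makes Lyve1. Of 6 genes known from it, podoplanin (Pdpn) and Mmrn1 were at or near 0, with highest values of 0.579 and 0.938 CPM, and Ccl21a reached at most 1.99 CPM. The other members of that list were read in every liver, Prox1, which hepatocytes make too, at 74.2 to 147.9 CPM, Reln, which stellate cells make too, at 14.1 to 81.7 CPM and Flt4, also a gene of sinusoidal endothelium, at 6.71 to 26.3 CPM. The part of lymphatic endothelium in the level of Lyve1 was not tested.

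To compare genes with each other, levels per transcript length (TPM) were used, in which the authors scaled each library to a fixed sum. Clec4g (gene 75863, GRCm38.p6 chr8:3707066-3720695), which encodes the C-type lectin LSECtin, had the highest mean level, 39.8 TPM over the 10 livers (lowest 18.2, highest 55.0). Fcgr2b (gene 14130, chr1:170960558-170976071), the low-affinity Fc gamma receptor that takes up small immune complexes, followed at 22.4 TPM and was below Clec4g in 10 of 10 livers. Next came Nrp1 (gene 18186, chr8:128358591-128505476), a coreceptor of VEGF and receptor of semaphorins, at 17.2 TPM. Stab2 (gene 192188, chr10:86841194-87008038), the hyaluronan scavenger receptor, averaged 13.4 TPM, and Dnase1l3 (gene 13421, chr14:7965187-7994760), a secreted DNase that digests DNA in blood, averaged 13.2 TPM. Neighbours among Fcgr2b, Nrp1, Stab2 and Dnase1l3 exchanged places in 4 of 10 livers at each step, so their order is not set beyond the spread.

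The lower part of the order held the other 5 markers. Oit3 (gene 18302, chr10:59422960-59441779), a secreted protein with a zona pellucida domain, averaged 9.84 TPM, and Stab1 (gene 192187, chr14:31139017-31168651), a scavenger receptor of modified lipoproteins and matrix proteins, 7.53 TPM, with Oit3 above Stab1 in 10 of 10 livers. The main VEGF receptor Kdr (gene 16542, chr5:75932827-75979072) stood at 7.35 TPM, below Stab1 in 6 of 10 livers. Pecam1 (gene 18613, chr11:106654213-106715281), the junction protein CD31, averaged 5.56 TPM. Lyve1 (gene 114332, chr7:110850607-110862953), a hyaluronan receptor, was last with a mean of 4.80 TPM, and Pecam1 lay above it in 8 of 10 livers. It ran from 1.36 to 15.5 TPM, and this 11.4-fold ratio of highest to lowest was the largest of the 10 markers. The ranges of every pair of neighbours in this order overlapped.

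Promoter windows of RefSeq (GRCm38.p6, 250 bases before to 50 after the start) matched 6 of the 10 markers by symbol: Stab1, Stab2, Fcgr2b, Clec4g, Kdr and Nrp1. Since most markers moved together from liver to liver, as described next, the windows were searched on both strands for the core letters AGGAAG of ETS factors, AGATAA of GATA factors and CACGTG, the E-box read by clock factors. AGGAAG or its reverse CTTCCT was in the windows of Clec4g, Nrp1, Stab1 and Stab2, 4 of 6, and 35.4% of 32851 mouse promoters hold it. AGATAA was in 0 of 6 windows (11.2% of all promoters) and CACGTG in 0 of 6 (7.15%). The parts of the windows that lie before the annotated gene are shown for the lectin and the stabilins, 5′ to 3′ along the gene, all on the minus strand, with the ETS letters in capitals. They cover chr8:3720696-3720901 for Clec4g, where neighbouring copies of AGGAAG overlap, chr14:31168652-31168891 for Stab1, and chr10:87008039-87008192 for Stab2, whose only match lies inside the annotated gene and is not shown. A match in letters is a description and not a binding site.
Clec4g: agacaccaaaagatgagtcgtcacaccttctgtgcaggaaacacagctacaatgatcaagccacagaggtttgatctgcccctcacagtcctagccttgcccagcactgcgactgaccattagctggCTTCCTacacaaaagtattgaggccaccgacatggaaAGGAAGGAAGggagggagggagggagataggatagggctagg
Stab1: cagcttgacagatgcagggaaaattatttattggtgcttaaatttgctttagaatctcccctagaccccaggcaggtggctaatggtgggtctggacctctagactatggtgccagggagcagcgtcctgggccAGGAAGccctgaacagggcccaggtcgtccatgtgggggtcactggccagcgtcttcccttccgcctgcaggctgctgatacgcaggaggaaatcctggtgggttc
Stab2: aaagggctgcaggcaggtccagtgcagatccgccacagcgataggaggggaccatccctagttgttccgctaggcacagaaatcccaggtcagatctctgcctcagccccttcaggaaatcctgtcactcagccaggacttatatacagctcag

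Across the 10 livers most of the markers went up and down together, and this common movement ran across genotypes. The scavenger receptor Stab1 had 42.4 CPM in the S400D/S400D female, 49.7, 51.1 and 45.8 CPM in S400D/S400D males 1, 2 and 3, 37.5, 40.5 and 46.8 CPM in S400D/WT males 1, 2 and 3, and 51.8, 24.7 and 24.9 CPM in WT/WT males 1, 2 and 3. WT/WT male 1 was thus the highest of the 10 livers and WT/WT males 2 and 3 the lowest. Stab2 had 54.9 CPM in the female, 44.7, 59.2 and 56.5 CPM in S400D/S400D males, 32.5, 52.9 and 57.8 CPM in S400D/WT males, and 62.8, 29.4 and 24.8 CPM in WT/WT males, in replicate order. Fcgr2b had 17.1 CPM in the female, 20.8, 22.2 and 24.6 CPM in S400D/S400D males, 14.8, 17.5 and 21.8 CPM in S400D/WT males, and 25.9, 8.82 and 7.94 CPM in WT/WT males. In all 3 of these scavenger receptors S400D/WT male 1 and WT/WT males 2 and 3 were the 3 lowest livers, and WT/WT male 1 was the highest.

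**Figure D1:**
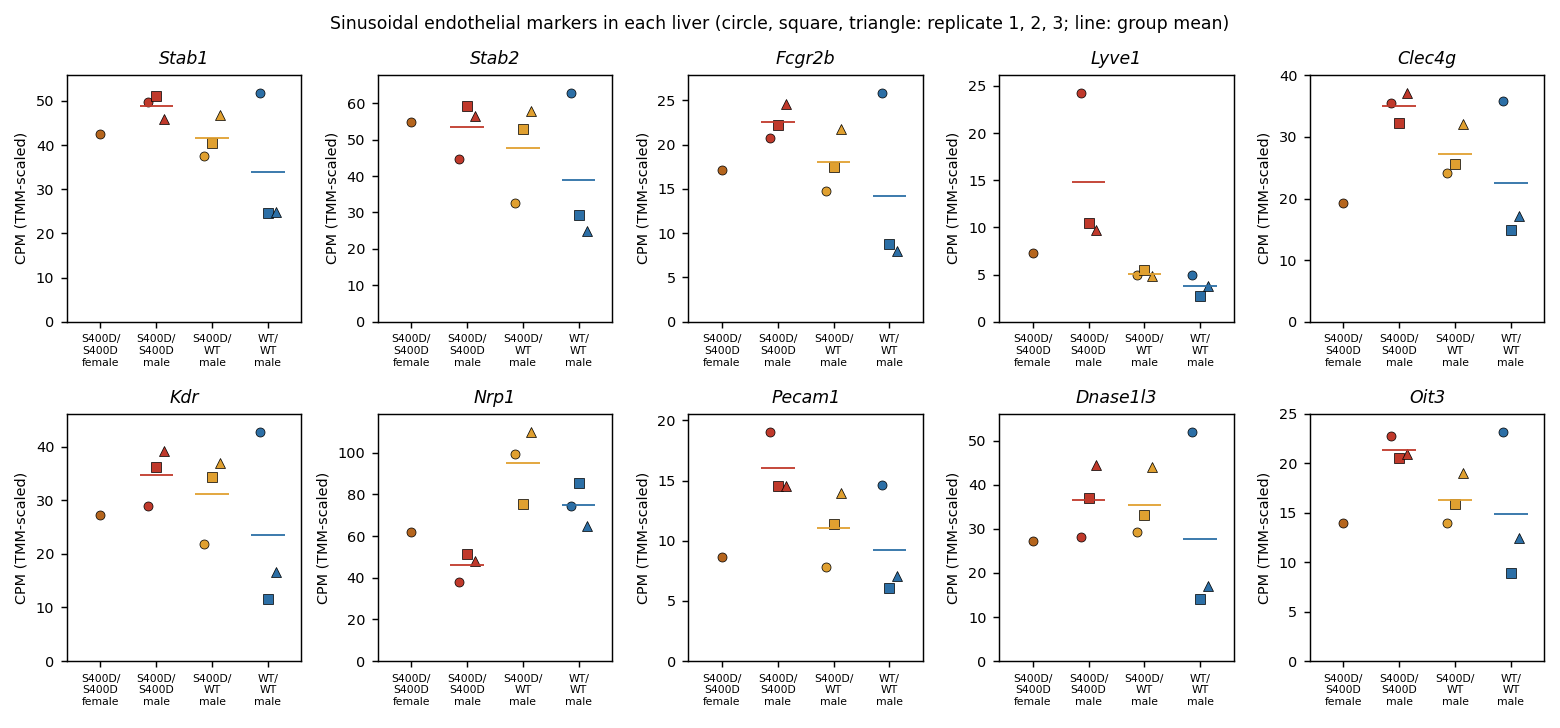
Level of each marker (y axis, TMM-scaled CPM, starting at 0) in each liver, by group (x axis), with 1 point for each liver and a line at the mean of each group of 3. Lyve1 is highest in S400D/S400D males (9.76 to 24.3 CPM) and Nrp1 is lowest in them (37.9 to 51.5 CPM), while in most other panels WT/WT male 1 lies far above WT/WT males 2 and 3.

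The lectin Clec4g followed the same course, with 19.3 CPM in the female, 35.5, 32.3 and 37.2 CPM in S400D/S400D males, 24.2, 25.6 and 32.2 CPM in S400D/WT males, and 35.8, 14.9 and 17.1 CPM in WT/WT males. Kdr, the VEGF receptor, had 27.2 CPM in the female, 29.0, 36.2 and 39.2 CPM in S400D/S400D males, 21.9, 34.3 and 37.0 CPM in S400D/WT males, and 42.7, 11.5 and 16.6 CPM in WT/WT males. The spread among the 3 wild-type livers, 3.71-fold in Kdr, was as wide as that among all 10. Pecam1 had 8.68 CPM in the female, 19.0, 14.6 and 14.5 CPM in S400D/S400D males, 7.80, 11.4 and 14.0 CPM in S400D/WT males, and 14.6, 6.05 and 7.08 CPM in WT/WT males. S400D/S400D male 1 was the highest liver for this junction gene.

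Both secreted products moved likewise. Dnase1l3 had 27.3 CPM in the female, 28.1, 37.1 and 44.5 CPM in S400D/S400D males, 29.2, 33.1 and 44.1 CPM in S400D/WT males, and 52.0, 14.1 and 17.1 CPM in WT/WT males. For Oit3 the levels were 14.0 CPM in the female, 22.7, 20.5 and 20.9 CPM in S400D/S400D males, 13.9, 15.9 and 19.0 CPM in S400D/WT males, and 23.2, 8.88 and 12.5 CPM in WT/WT males. WT/WT male 1 was the highest liver for both. S400D/WT male 1 and WT/WT males 2 and 3 were the 3 lowest livers for 6 of the 10 markers (Stab1, Stab2, Pecam1, Kdr, Oit3 and Fcgr2b). They were also the lowest 3 for 5.97% of the 12954 genes tested over 10 livers. This trio was picked as the most frequent lowest 3 among the markers themselves, so the 6 of 10 cannot be weighed against that share. For Clec4g and Dnase1l3 the female took the place of S400D/WT male 1 among the lowest 3.

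**Figure D2:**
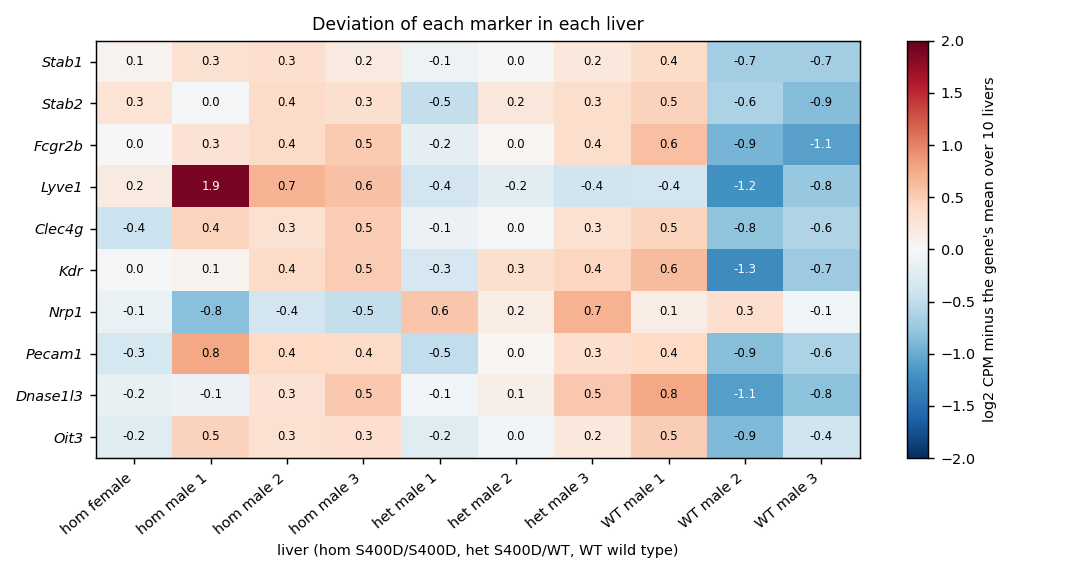
Deviation of each marker (rows) in each liver (columns) from that marker's mean over the 10 livers, on the log2 CPM scale, with positive values in red and negative values in blue. Rows other than Lyve1 and Nrp1 share the blue columns of WT/WT males 2 and 3, the mean of these 8 being -0.90 and -0.73 there and 0.52 in WT/WT male 1.

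Taking the 8 markers without Lyve1 and Nrp1, a grouping made after their values were seen, the mean deviation on the log2 CPM scale was -0.11 in the female, 0.28, 0.35 and 0.41 in S400D/S400D males, -0.25, 0.08 and 0.34 in S400D/WT males, and 0.52, -0.90 and -0.73 in WT/WT males. Pearson's r of log2 CPM over the 10 livers lay between 0.74 and 0.98 in the 28 pairs of these 8 genes, with a median of 0.90. The points of each correlation come from the same libraries and share their scaling, and the genes can share cells, so r is a description only. Lyve1 ran along more loosely (r of 0.37 to 0.77 with the 8) and Nrp1 ran the other way (r of -0.82 with Lyve1 and of -0.50 to -0.04 with the 8).

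The genes whose log2 CPM most resembled the mean of the 10 markers, among 11584 other genes that averaged 1 CPM or more, were led by Plxnc1 (r = 0.98 over 10 livers), the VEGF-C receptor gene Flt4 (0.98), Cyyr1 (0.98), the water channel gene Aqp1 (0.98) and Amotl1 (0.97). They were followed by Cd93, Gpr182, Ehd3, the TGF-beta coreceptor gene Eng and Mmrn2 (each 0.97). With WT/WT males 2 and 3, the livers farthest from the median, left out, r was between 0.86 (Eng) and 0.98 (Cyyr1) in these 10 genes. Of the 10, 7 stand in one of the endothelial gene lists used here, and Cyyr1, Aqp1 and Amotl1 do not.

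Lyve1 and Nrp1 departed from the common course. Lyve1, the hyaluronan receptor, had 7.26 CPM in the female, 24.3, 10.5 and 9.76 CPM in S400D/S400D males, 4.91, 5.49 and 4.84 CPM in S400D/WT males, and 4.92, 2.70 and 3.75 CPM in WT/WT males. All 3 homozygous males lay above all 6 other males, and the female lay between them. The share of all genes with this order was not computed. The means were 14.8 ± 8.18 CPM in S400D/S400D males, 5.08 ± 0.353 CPM in S400D/WT males and 3.79 ± 1.11 CPM in WT/WT males (SD, n = 3 each), and S400D/S400D male 1 alone made up much of the spread of its group.

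Nrp1, the coreceptor, went the opposite way. It had 61.7 CPM in the female, 37.9, 51.5 and 48.3 CPM in S400D/S400D males, 99.6, 75.2 and 109.9 CPM in S400D/WT males, and 74.5, 85.3 and 64.7 CPM in WT/WT males. All 3 homozygous males lay below all other livers, the female included, and the highest livers were heterozygous. For this order, too, the share of all genes was not computed. The means were 45.9 ± 7.11 CPM in S400D/S400D males, 94.9 ± 17.8 CPM in S400D/WT males and 74.8 ± 10.3 CPM in WT/WT males (SD, n = 3 each).

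Homozygous males were compared with wild-type males in one fit of the 9 males, by edgeR's quasi-likelihood test with Benjamini-Hochberg adjustment over 12427 genes. At the adjusted threshold of 0.05, edgeR called 0 of 10 markers and 0 genes of all (0%), and limma-voom called 0 markers. DESeq2 called 307 of the 12427 genes, among them Lyve1 and Nrp1. At an unadjusted p under 0.05, 3 of 10 markers stood out in edgeR (14.9% of all genes, 1852 genes). They were Lyve1 and Pecam1, both higher (6.82% of all genes), and Nrp1, lower (8.08%). The groups did not overlap for 1 marker that was higher (9.26% of all genes) and 1 that was lower (11.5%), both near the share among all genes. The median log2 fold change of the 10 markers was 0.55, against 0.004 over all tested genes, and 9 of 10 were positive (50.7% of all genes).

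Lyve1 had the largest of these fold changes, 1.97 on the log2 scale (SE 0.37, 95% interval 1.14 to 2.79), higher in 3 of 3 homozygous males than in any wild-type male, with an adjusted p = 0.147 in edgeR and 0.000131 in DESeq2. Over the alternatives run in edgeR and limma its adjusted p ranged from 0.0831 to 0.461, and without S400D/S400D male 1 the log2 fold change was 1.41. Nrp1 had -0.70 (SE 0.17, 95% interval -1.09 to -0.31), an adjusted p = 0.192 in edgeR and 0.0218 in DESeq2, and a range of 0.14 to 0.552 over the edgeR and limma alternatives. Pecam1 followed with 0.79 (SE 0.33, edgeR adjusted p = 0.31), and its 2 groups overlapped.

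The scavenger receptors Fcgr2b, Stab1 and Stab2 had log2 fold changes of 0.66 (SE 0.39), 0.53 (SE 0.26) and 0.46 (SE 0.34), and the lectin gene Clec4g 0.63 (SE 0.29). Kdr had 0.56 (SE 0.42), Oit3 0.53 (SE 0.29) and Dnase1l3 0.40 (SE 0.44). The 95% intervals of these 7 all included 0, with upper bounds between 1.12 (Stab1) and 1.55 (Fcgr2b), so equal levels and differences of that size were both within the error of 3 livers a group. These values depended on which wild-type livers were used. Without WT/WT male 1, the highest wild-type liver for these 7 genes, the median of the 10 markers was 1.18. In that fit edgeR called 18 of 12575 genes, among them Stab1 (log2 fold change 0.98), Clec4g (1.13) and Fcgr2b (1.43), each with an adjusted p = 0.0492. The wild-type group was then only WT/WT males 2 and 3, which were among the 3 lowest livers for each of these 7 genes. Without WT/WT male 2 the median was 0.32, and without WT/WT male 3 it was 0.38.

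**Figure D3:**
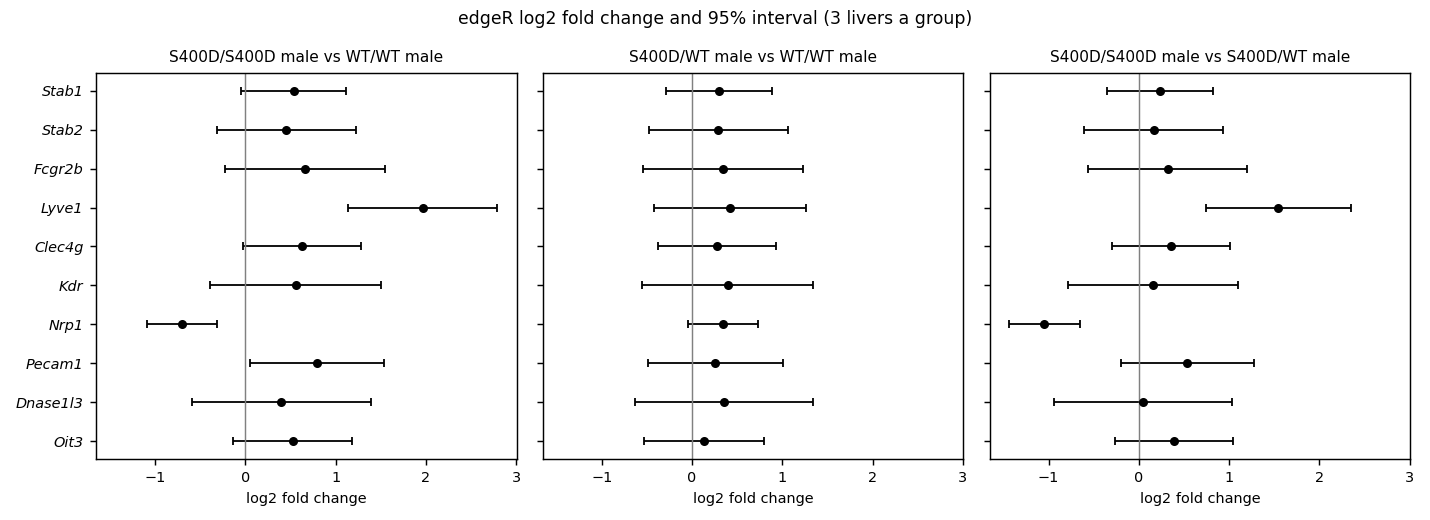
Log2 fold change of each marker (points) with its 95% interval (bars) by edgeR in the 3 comparisons between genotypes of males, each with 3 livers a group, and a vertical line at 0. Lyve1 lies right of 0 and Nrp1 left of 0 in both comparisons of S400D/S400D males, at 1.97 and -0.70 against WT/WT males and at 1.55 and -1.05 against S400D/WT males.

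One S400D copy was examined by comparing heterozygous with wild-type males, which are the same 3 WT/WT livers as in the comparison before. All 10 markers had positive log2 fold changes (51.6% of all genes), from 0.14 (Oit3) to 0.42 (Lyve1), with a median of 0.32 against 0.007 over all genes. None of them passed: 0 of 10 markers were called by edgeR, limma-voom or DESeq2, where 0 genes (0%) were called by edgeR and 7 by DESeq2, 0 of 10 markers had an unadjusted p under 0.05 (4.19% of genes, 1.67% higher and 2.52% lower), and the groups overlapped for every marker (4.56% of genes higher and 5.81% lower without overlap). Every edgeR adjusted p of a marker was between 0.972 and 0.979. Lyve1 had 0.42 (SE 0.37) and Nrp1 0.35 (SE 0.17). The median was 0.77 without WT/WT male 1, 0.08 without WT/WT male 2, 0.11 without WT/WT male 3 and 0.19 without S400D/WT male 3.

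Between carriers, homozygous males were compared with heterozygous males in the same fit of the 9 males. The wild-type livers are not a side of this contrast, but they share in its estimate of the spread and so in its errors and p-values. Nrp1 and Lyve1 again stood at the ends. Nrp1 had a log2 fold change of -1.05 (SE 0.18, 95% interval -1.44 to -0.65), that is, lower in 3 of 3 homozygous males than in any heterozygous male, with an adjusted p = 0.104 in edgeR, equal to the lowest of all 12427 genes, and 5.42e-05 in DESeq2. Lyve1 had 1.55 (SE 0.36, 95% interval 0.74 to 2.35), with an adjusted p = 0.115 in edgeR and 0.00341 in DESeq2. Without S400D/S400D male 1 the log2 fold change of Lyve1 was 0.99 (edgeR adjusted p = 0.221). Adjusted p ranged from 0.0513 to 0.31 for Nrp1 and from 0.0649 to 0.317 for Lyve1 over the edgeR and limma alternatives.

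In the same comparison edgeR called 0 of 10 markers and 0 genes (0%), limma-voom 0 markers, and DESeq2 544 of 12427 genes, of which 2 were markers. At an unadjusted p under 0.05 in edgeR there were 2 markers (17.2% of all genes, 2134 genes), Lyve1 higher (8.25%) and Nrp1 lower (8.92%). The groups did not overlap for 4 markers that were higher in homozygous males (Lyve1, Pecam1, Oit3 and Clec4g, 10.7% of all genes) and for 1 that was lower (Nrp1, 11.7%). Pecam1 had 0.54 (SE 0.33), Oit3 0.39 (SE 0.29) and Clec4g 0.36 (SE 0.29) on the log2 scale, all with intervals that included 0. Fcgr2b (0.32), Stab1 (0.24), Stab2 (0.16), Kdr (0.16) and Dnase1l3 (0.04) were smaller. The median was 0.28 against 0.002 over all genes, and 0.18 without S400D/WT male 1.

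Ratios between markers were also taken within each library. Lyve1 gave 13.2 reads per 100 Stab2 reads in the female, 54.4, 17.7 and 17.3 in S400D/S400D males, 15.1, 10.4 and 8.38 in S400D/WT males, and 7.84, 9.19 and 15.1 in WT/WT males. The homozygous males were the 3 highest, but males 2 and 3 stood only slightly above S400D/WT male 1 and WT/WT male 3. Nrp1 gave 2.27 reads per Kdr read in the female, 1.31, 1.42 and 1.23 in S400D/S400D males, 4.54, 2.19 and 2.97 in S400D/WT males, and 1.74, 7.40 and 3.89 in WT/WT males. The homozygous males were the 3 lowest and lay close to each other, while the heterozygous and wild-type livers were widely spread.

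**Figure D4:**
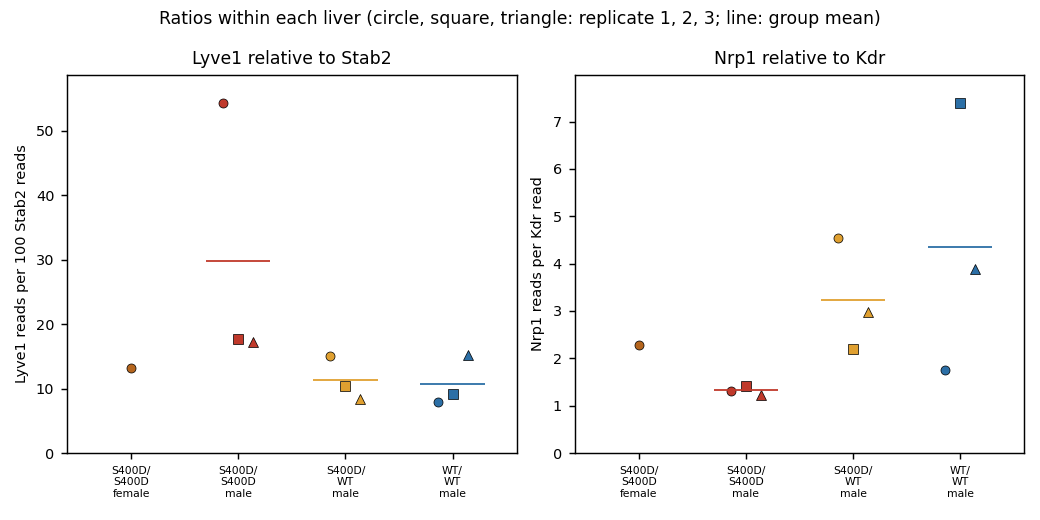
Lyve1 reads per 100 Stab2 reads (left) and Nrp1 reads per Kdr read (right) in each liver, by group, with lines at the means of the groups of 3. Homozygous males are the 3 highest on the left (17.3 to 54.4) and the 3 lowest on the right (1.23 to 1.42).

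The single female was set against the 3 homozygous males in a model of the 10 livers together, which assumes that 1 female varies as the males of a group do. No marker passed: edgeR called 0 of 10 markers and 10 genes of 12954 (0.0772%), DESeq2 104 genes and 0 markers, and 0 of 10 markers had an unadjusted p under 0.05 (10.3% of genes, 5.21% higher and 5.13% lower). Log2 fold changes were positive for 2 markers (48.2% of genes). The female lay below all 3 males for 8 markers (27.1% of all genes), above them for Nrp1 (27.3%), and among them for Stab2. Lyve1 had a log2 fold change of -1.03 (SE 0.52), which was -0.48 without S400D/S400D male 1, Pecam1 -0.89 (SE 0.49), Clec4g -0.86 (SE 0.43) and Nrp1 0.43 (SE 0.24). Sex and animal cannot be told apart with 1 female.

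Other measures of these livers moved with the markers. The 14 markers of Kupffer cells and other macrophages, the resident phagocytes of the sinusoid, summed to 563.6 CPM in the female, 547.6, 585.2 and 579.8 CPM in S400D/S400D males, 253.4, 495 and 595.8 CPM in S400D/WT males, and 634.5, 261.2 and 202.5 CPM in WT/WT males. S400D/WT male 1 and WT/WT males 2 and 3, the low livers of 6 sinusoidal markers, were also the 3 lowest for 13 of these 14 genes. The defining Kupffer gene Clec4f had 99.6 CPM in the female, 95.2, 104.4 and 104.8 CPM in S400D/S400D males, 50.4, 93.1 and 103.1 CPM in S400D/WT males, and 113 (WT/WT male 1), 50.2 and 40.1 CPM in WT/WT males. Fcgr2b, Stab1 and Lyve1 can also be expressed by macrophages, and the part of macrophages in their levels was not tested.

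The scavenger receptor gene Marco of Kupffer cells had the same order of the means of the male groups as Lyve1. It had 19.4 CPM in the female, 21.9, 7.20 and 12.8 CPM in S400D/S400D males, 3.62, 3.89 and 9.41 CPM in S400D/WT males, and 6.04, 1.80 and 1.91 CPM in WT/WT males. Unlike for Lyve1, S400D/WT male 3 lay above S400D/S400D male 2. Its log2 fold change was 2.10 in homozygous against wild-type males (SE 0.60, edgeR adjusted p = 0.214). S400D/S400D male 1 was the highest liver for Marco as it was for Lyve1, and also for Cd163 (29.3 CPM). Kupffer genes were positive in 13 of 14 cases in this comparison with a median of 0.63, and 0 were called.

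**Figure D5:**
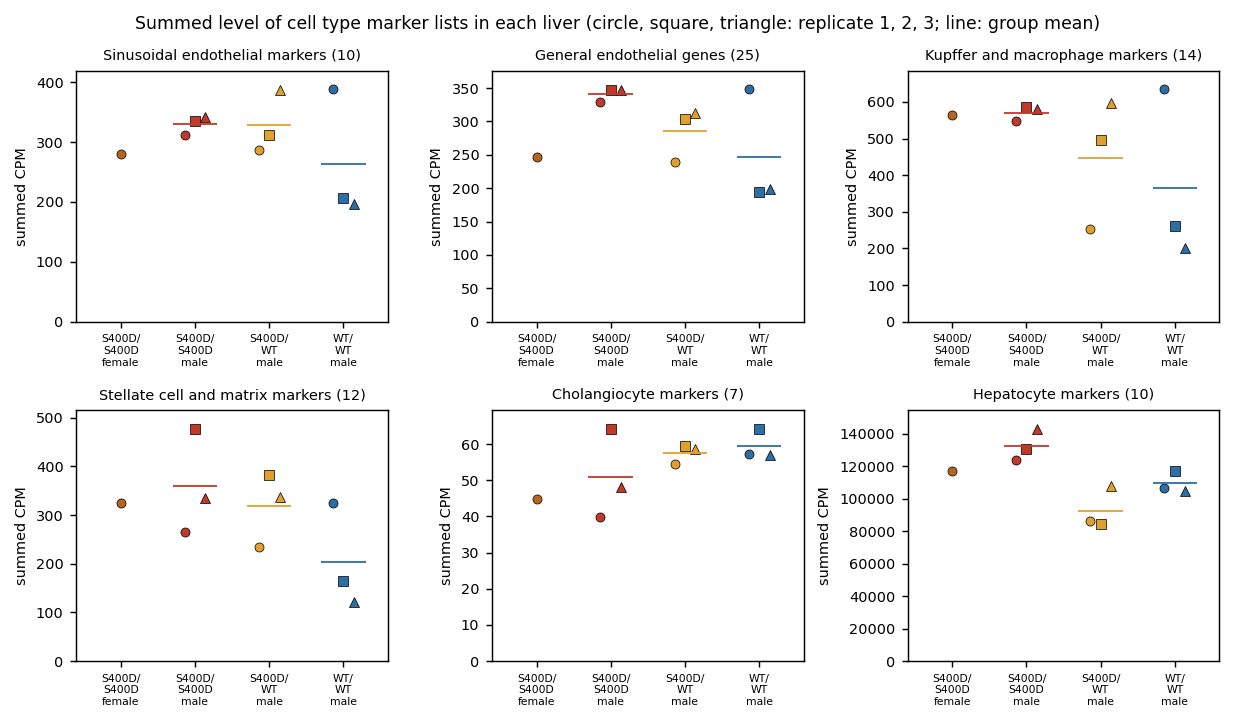
Summed level (y axis, TMM-scaled CPM, starting at 0) of the 10 sinusoidal endothelial markers and of 5 further marker lists in each liver, by group, with lines at the means of the groups of 3. The sinusoidal, general endothelial, macrophage and stellate sums are all low in WT/WT males 2 and 3, while the cholangiocyte and hepatocyte sums are not. The sinusoidal list sums to 206.3 CPM in WT/WT male 2 and 196.5 CPM in WT/WT male 3.

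Stellate cell and matrix genes, of the cells wrapped around the sinusoid, summed to 323.7 CPM in the female, 264.3 to 477.7 CPM in S400D/S400D males, 234.4 to 383.1 CPM in S400D/WT males and 120.4 to 324.2 CPM in WT/WT males. Of 12 tested, 10 were positive in homozygous against wild-type males (median 0.78), and Dcn, the matrix proteoglycan decorin, had 1.13 (SE 0.32, edgeR adjusted p = 0.209). Hepatocyte genes summed to 117300 CPM in the female, 124100 to 143300 CPM in S400D/S400D males, 84330 to 107700 CPM in S400D/WT males and 104900 to 117200 CPM in WT/WT males, and the trio of low livers was the lowest 3 for 0 of 10 of them. Cholangiocyte genes (0 of 6) did not share that trio either, whereas erythroid genes did in 4 of 6 cases. Stellate genes shared it in 5 of 12 cases, against 5.97% of all genes tested over 10 livers. The stellate sum was also lowest in the trio, at 234.4 CPM in S400D/WT male 1 and 164.7 and 120.4 CPM in WT/WT males 2 and 3. The erythroid sum was 303.4 CPM in the female, 262.6 to 294.3 CPM in S400D/S400D males, 215.3 to 1733 CPM in S400D/WT males and 161.2 to 1981 CPM in WT/WT males, the highest value in WT/WT male 1. The part of blood left in the livers was not tested.

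Clock genes and transcript length differed between the livers in ways that partly followed genotype. The clock gene Arntl had 1.59 CPM in the female, 17.4, 26.1 and 38.1 CPM in S400D/S400D males, 1.17, 31.5 and 2.59 CPM in S400D/WT males, and 2.64, 2.45 and 4.25 CPM in WT/WT males, and its output gene Dbp went the other way. Dbp had 205 CPM in the female, 4.63, 12.9 and 1.27 CPM in S400D/S400D males, 247, 6.02 and 105.4 CPM in S400D/WT males, and 128.4, 147.9 and 157.6 CPM in WT/WT males. For both genes S400D/WT male 2 lay within the range of the homozygous males. The part of the clock genes in the levels of Lyve1 and Nrp1 was not tested. The mean transcript length of the libraries, weighted by FPKM, was 1452.2 bases in the female, 1439.1 to 1459.8 bases in S400D/S400D males, 1272.1 to 1364.6 bases in S400D/WT males and 1307.1 to 1381 bases in WT/WT males. With a smooth trend on length removed from each library, homozygous against wild-type males gave 1.97 for Lyve1 and -0.79 for Nrp1.

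Of 24 other genes known from sinusoidal endothelium, 23 were tested between homozygous and wild-type males, 21 were positive and 0 were called (median 0.38). Adam23, a disintegrin family gene, had the largest change, 1.20 (SE 0.29, edgeR adjusted p = 0.188), with 10.4 CPM in the female, 14.0, 11.2 and 13.8 CPM in S400D/S400D males, 4.48, 7.67 and 7.60 CPM in S400D/WT males, and 8.15, 3.80 and 5.05 CPM in WT/WT males. As with Lyve1, every homozygous male lay above every other male. Of all genes, 9.26% were higher without overlap against wild-type males and 10.7% against heterozygous males, and the share for both together was not computed. The mannose receptor gene Mrc1 (0.72) and the VEGF-C receptor gene Flt4 (0.75) were next, and the lysosomal protease gene Ctsl, the most abundant of the list, had 0.24. Of 25 general endothelial genes 21 were positive and 0 called (median 0.50), with Eng at 0.57 (SE 0.20, edgeR adjusted p = 0.259), the lipoprotein lipase anchor gene Gpihbp1 at 0.82 and the sphingosine-1-phosphate receptor gene S1pr1 at -0.07.

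Genes of VEGF, angiopoietin and Notch signalling, which act on Kdr and Nrp1 or beside them, were positive in 15 of 20 tested cases and called in 0 (median 0.48). The ligand Vegfa was among the 5 negative ones, with 200.1 CPM in the female, 149.6, 153.4 and 155 CPM in S400D/S400D males, 274, 225.8 and 171.5 CPM in S400D/WT males, and 176.7, 212.3 and 229.7 CPM in WT/WT males. Like Nrp1, Vegfa was lower in all 3 homozygous males than in any other liver. Lower values without overlap were found in 11.5% of all genes against wild-type males and in 11.7% against heterozygous males. How many genes lay below all other livers was not computed. Values of Vegfa are thus a description. Its log2 fold change was -0.43 (SE 0.17, edgeR adjusted p = 0.292) against wild-type males and -0.55 (SE 0.17, edgeR adjusted p = 0.17) against heterozygous males. The semaphorin receptor gene Plxnd1, a partner of neuropilins, had 0.51, Notch1 0.68 and the Notch target Hey1 1.04 on the log2 scale, none of them called.

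A list of genes that handle hyaluronan, immune complexes and DNA, the cargoes of these markers, also held the receptor or membrane protein genes Scarb1, Scarb2, Cd36 and Mrc1. In homozygous against wild-type males its genes were positive in 10 of 15 tested cases and called in 0 (median 0.19). The hyaluronan synthase gene Has2 had 0 reads in all 10 livers. The HDL receptor gene Scarb1 had 0.33 (SE 0.10, edgeR adjusted p = 0.225), the hyaluronan receptor gene Cd44 0.91 (SE 0.43) and the Fc receptor gene Fcgr4 1.14 (SE 0.47). Among the 5 negative genes were Hyal1 at -0.43 (SE 0.14, edgeR adjusted p = 0.24), Fcgrt at -0.075 (SE 0.133) and Scarb2 at -0.008 (SE 0.125). Among 15 genes of vessels outside the sinusoid or of capillarised endothelium, 10 were tested, 7 were positive and 0 called (median 0.13), with Plvap, a gene of capillary diaphragms, at 0.86 (SE 0.32) and Cd34 at -0.53 (SE 0.45). Of the 6 lymphatic endothelial genes 4 were tested, 2 were positive and 0 called, with Reln at 1.09 (SE 0.42), Flt4 at 0.75 (SE 0.48), Prox1 at -0.155 (SE 0.23) and Ccl21a at -1.41 (SE 0.67). The lymphatic chemokine gene Ccl21a had 0.624 CPM in the female, 0.343, 0.410 and 0.301 CPM in S400D/S400D males, 0.860, 0.944 and 0.845 CPM in S400D/WT males, and 1.99, 0.579 and 0.246 CPM in WT/WT males.

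The division of reads between transcripts of a gene differed among the markers. Lyve1, Stab1, Clec4g and Oit3 have 1 transcript in the table, and 1 transcript took 99.95% of the reads of Kdr and 97.8% of those of Fcgr2b. Only 20.7% of the Stab2 reads fell on its curated transcript (8.85% to 27.6% by liver), and 69.2% fell on 1 predicted transcript, so Stab2 by curated transcripts alone would be a small part of the gene. The TPM of Stab2, and its place in the order of levels, thus rests largely on the length of that predicted transcript. By reads Stab2 and Stab1 were closer, with means of 47.6 and 41.5 CPM against 13.4 and 7.53 TPM. Of the Nrp1 reads 82.1% fell on 3 curated transcripts. Pecam1 was split over 4 curated transcripts, of which 1 took 0% in 3 livers and 56.6% in another, so the values of single Pecam1 transcripts are uncertain and only the sum was used. Exons of Stab1, Stab2, Clec4g and Fcgr2b share 112 to 155 bases with a gene on the other strand in GENCODE, and since no source used here says whether the counting used strand, reads in those stretches cannot be assigned.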

How the data were processed

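Poly(A)-selected RNA of 10 livers was sequenced, per the labels' protocols. The authors deposited, per transcript and liver, expected counts (estimated counts of reads, not normalised), FPKM (per transcript length and library, scaled by the authors) and TPM (scaled by the authors to a fixed sum per library). HISAT, Bowtie2 and the build GRCm38.p6 are named in the submitters' processing notes, without roles; no source used here gives the counting program or its use of strand. FPKM served only to weight transcript length.

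The 77712 transcripts (34387 curated, 43325 predicted in RefSeq) were summed to 19271 genes, of which 19214 matched a RefSeq symbol. Of nonzero sums 94.5% lay within 0.05 of a whole number, and all were rounded. Replicates were compared by a chi-square test of their counts, and no pair agreed within sampling noise (22.9 to 110.05 per degree of freedom). CPM are counts divided by the TMM-adjusted size of each library (0.9002 to 1.0468). Tests used edgeR 4.0.16 under R 4.3.3 (quasi-likelihood fit) with its own filter on low counts, Benjamini-Hochberg adjustment and a threshold of 0.05. The 9 males were fitted by genotype, and all 10 livers for the female. In simulated data each gene varied independently, with the spread typical of its level and no movement shared by the genes of a liver. The rates that follow therefore do not say how often a changed marker would be called in these livers. With 3 livers a group, simulated data for homozygous against wild-type males (12427 genes) gave back 65 of 100 genes changed 2-fold and 98 of 100 changed 8-fold, with 3 false calls. For the female against homozygous males (12954 genes) it gave back 17 and 89 of 100, with 2 false calls. Alternatives were DESeq2 1.42.0, limma 3.58.1 (voom, and log2 TPM), other scalings and filters, curated transcripts only, a length trend removed, a replicate block and each liver left out.

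The 10 markers and all gene lists were chosen with earlier results of these data known. From each further list the genes named are those with the highest level or the largest change in homozygous against wild-type males. Arntl and Dbp were set in the same rule as values of the clock state, and genes like the markers are the 10 with the highest r. Cd34, Cdh5, Pdpn, Mmrn1, Has2 and Hyal1 were named after their values were seen, as were the ratios. Pearson's r is computed on log2 of CPM with a prior count of 2. Promoters are from RefSeq, exon overlaps from GENCODE M21. Intervals on counts cover counting error only.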

Additional observations from a re-analysis of the deposited data

How the results depend on the processing

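Of 750 recomputed log2 fold changes of single markers, 734 kept their direction and their side of the threshold, 7 passed it only in the alternative and 9 changed sign. DESeq2 called 307 genes and 2 markers in homozygous against wild-type males, 7 genes in heterozygous against wild-type males, 544 genes and 2 markers in homozygous against heterozygous males, and 104 genes in the female against homozygous males, where edgeR called 0, 0, 0 and 10 genes; the cause was not tested. Log2(TPM + 1) without a filter gave 1, 1 and 68 genes in homozygous against wild-type, homozygous against heterozygous and female against homozygous livers, and a filter of 1 CPM in 3 samples gave 5 genes for the female. With each liver left out in turn, 0 to 18 genes, 0 to 3 markers and a median of 0.32 to 1.18 were found in homozygous against wild-type males (18, 3 and 1.18 without WT/WT male 1), a median of 0.083 to 0.77 in heterozygous against wild-type males, 0 to 6 genes (6 without S400D/S400D male 2) and a median of 0.18 to 0.41 in homozygous against heterozygous males, and a median of -0.47 to -0.30 for the female. Changes of sign were those of Oit3 in heterozygous against wild-type males (-0.13 without WT/WT male 2); in homozygous against heterozygous males Dnase1l3 (-0.003 with the length trend removed, and -0.123, -0.081 and -0.005 without S400D/S400D male 3, S400D/WT male 1 and S400D/WT male 2, within a range of -0.123 to 0.228), Stab2 (-0.051 to 0.323) and Kdr (-0.038 to 0.306), both lowest without S400D/WT male 1; and for the female Stab2 (-0.284 with curated transcripts only, and -0.075 to 0.119 over the livers left out). Deviations of livers with the same replicate number from their group means had correlations of -0.419 to 0.181. Livers with different numbers were not compared in this way, so whether the numbers pair the livers is not settled. With the replicate number as a block, edgeR called 0 genes and 0 markers in the 3 comparisons of males, the medians were 0.61, 0.35 and 0.27, and Lyve1 and Nrp1 had 1.90 and -0.71 in homozygous against wild-type males. Depth limits Lyve1 most, with 42 reads in its lowest liver.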

Other observations

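Because Lyve1 and Nrp1 departed from the other markers, the genes that most resembled each of them were also listed, a step chosen after their values were seen. Over the 10 livers and 11593 other genes that averaged 1 CPM or more, log2 CPM of Lyve1 ran closest to that of Ptpn9, a phosphatase gene (r = 0.96), Ada, the adenosine deaminase gene (0.96), and the integrin gene Itgb3 (0.94). With S400D/S400D males 1 and 2, the livers farthest from the median of Lyve1, left out, r was 0.88 for Ptpn9, 0.94 for Ada and 0.84 for Itgb3. For Nrp1 the closest genes were Dnph1 (r = 0.97), Pdss1, a gene of ubiquinone synthesis (0.97), and Ttc32 (0.96), with r of 0.98, 0.94 and 0.92 when S400D/S400D male 1 and S400D/WT male 3 were left out. None of these 6 genes stands in a list of endothelial or macrophage genes used here, whereas 7 of the 10 genes closest to the mean of the markers do. All 10 livers share libraries and scaling across these genes, so r is given as a description.

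Jchain, a gene of plasma cells, had the same order of homozygous and other males as Lyve1, with 2.78 CPM in the female, 5.88, 7.38 and 7.23 CPM in S400D/S400D males, 2.76, 2.95 and 3.77 CPM in S400D/WT males, and 1.99, 3.02 and 1.72 CPM in WT/WT males. Its log2 fold change in homozygous against wild-type males was 1.61 (SE 0.25), with an adjusted p = 0.147 by edgeR's quasi-likelihood test. Of 7 tested genes of B cells, plasma cells and T cells, 6 were positive in that comparison and 0 were called. Homozygous males were higher without overlap for 9.26% of all genes against wild-type males and for 10.7% against heterozygous males.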
